A study of Mus musculus with 7 samples.

Results

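H3K27me3, the trimethylation of lysine 27 on histone H3, was mapped in mouse liver, and 234 broad but thinly marked regions were followed across 7 livers. The islands (called stretches of enrichment) of the 7 lists numbered 122262, and overlapping or touching islands were merged into 17394 regions. Of these, 5305 lay on the 19 autosomes, were 30 kb to under 200 kb wide and held an island in each liver. They are called mid-sized regions here. Density was the deposited island score summed over the islands of a liver in the region, divided by the number of 400-bp windows in those islands. The 234 low-density regions, 4.41% of the mid-sized ones, were chosen by this density: they were at or below the 25th percentile of density in every one of the 7 lists. They spanned 21.5 Mb of mm9, the build of all coordinates below, and were found on all 19 autosomes. Since density chose them, every density below is a description. For comparison, 2 classes were set beside them: 649 dense regions, at or above the 75th percentile in every list, and the 4422 regions in between.

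All 7 livers came from male CD-1 (ICR) mice of 7 weeks, an outbred stock, and the labels name no transgene or deletion. Vehicle, 1% DMSO in corn oil, was given to 3 mice and TCPOBOP at 3 mg/kg to 4, and livers were taken 27 h later in both groups. TCPOBOP is an agonist of the nuclear receptor CAR (constitutive androstane receptor) of the mouse, which is known for inducing drug-metabolising enzymes and growth in hepatocytes. Each library came from the frozen liver of 1 animal and was prepared with an antibody to H3K27me3, so the spread between libraries holds both biological and technical variation, and the mark was read from all cell types of the liver together.

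As background, H3K27me3 is written by Polycomb repressive complex 2, whose catalytic subunit is EZH2 or EZH1. The subunit EED binds the finished mark and stimulates the enzyme, which lets the mark spread along chromatin from its first sites. In differentiated tissue the mark forms dense blocks over silenced developmental genes around CpG islands, and thinner, wider blankets over silent or gene-poor chromatin. SICER was written for such broad marks: it links neighbouring windows enriched over a random expectation and tolerates gaps between them. In bulk tissue, a weaker mark in every cell and a full mark in fewer cells cannot be told apart.

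The files listed islands and scores without read numbers. From the scores of narrow islands, read numbers of 29533929, 27939358 and 32536299 were recovered for vehicle livers 1 to 3, and of 31419033, 32388020, 32292090 and 32154814 for TCPOBOP livers 1 to 4. Each number gave the scores of 4 of 4 islands tried; the next best candidate gave 3 for vehicle 1 and at most 2 for the others, so vehicle 1 is the least certain. Vehicle 2 and TCPOBOP 2 stood apart from the other livers: they had the highest densities in dense regions and, the least cover in the low-density ones. Several cover, sharing and treatment results that rest on these livers are also given without them, an alternative chosen after seeing the data. The longest shared stretches, the cover along the regions, the standard deviations over livers and the rank correlations are given with all 7 livers only. The descriptions of all 7 libraries end in the same run and lane codes, and the labels name no batch.

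The scores showed how thin the mark was. The 25th percentiles of density that bounded the set were 2.31, 2.5 and 2.51 in vehicle livers 1 to 3, and 2.46, 2.58, 2.58 and 2.55 in TCPOBOP livers 1 to 4. The median low-density region had 1.98, 1.91 and 2.07 per window in the vehicle livers, and 2.07, 1.99, 2.16 and 2.09 in the TCPOBOP livers. Single regions ranged from 1.17 to 2.58 over all livers; the score grows with depth, so densities of different livers are set side by side without a test. The medians of the dense regions were 4.69, 7.95 and 5.65 in the vehicle livers and 5.3, 7.43, 5.55 and 6.08 in the TCPOBOP livers. The dense medians exceeded the low-density ones by 2.36 times in vehicle 1 to 4.17 times in vehicle 2, with 3.74 times in TCPOBOP 2 and 2.56 to 2.92 times in the other 4 livers. The gap between the classes was thus widest in the 2 livers that stood apart.

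**Figure D1:**
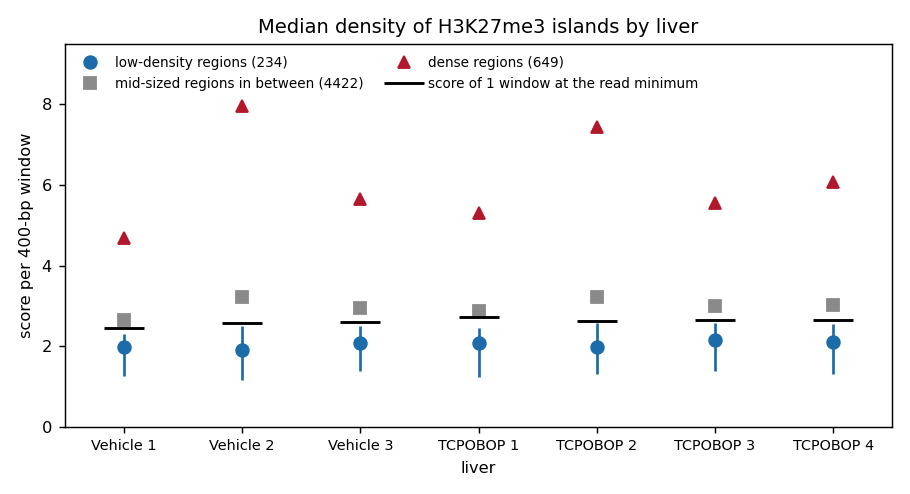
Median density, as score per 400-bp window (vertical axis, from 0), in each of 3 vehicle and 4 TCPOBOP livers (horizontal axis) for the low-density, in-between and dense regions; vertical lines span the lowest to highest low-density region, and black bars mark the score of a window with the fewest reads that SICER scores. The low-density medians lie between 1.91 and 2.16 in all 7 livers, whereas the dense medians reach 7.95 in vehicle 2 and 7.43 in TCPOBOP 2.

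Density of this size has a direct reading in the score. SICER gives a window a score only when it holds enough reads, which at the recovered depths was 8 reads in vehicle 1 and vehicle 2 and 9 in each of the other livers. A window that just reached this number scored 2.44, 2.58 and 2.61 in vehicle livers 1 to 3, and 2.72, 2.63, 2.64 and 2.65 in TCPOBOP livers 1 to 4. The limit of the set lay below that score in each list, so all 234 low-density regions averaged less than it in all 7 lists. Of the 649 dense regions, 0 did so in any list. Their rule fixed this too, as their own limits, 3.35 to 4.87, lay above that score in each list. An average below that score was not particular to the low-density set. In each list 1327 mid-sized regions lay at or below the limit, regions in between among them. The islands of the low-density regions therefore held windows with too few reads to score, bridged by the scored ones. The scored windows made up at most 81.3, 73.9 and 79.0% of island windows of the median low-density region in vehicle livers 1 to 3. In TCPOBOP livers 1 to 4 that limit was 76.1, 75.6, 81.8 and 78.7%. A random background at the same depth would score in 19.8, 16.2 and 16.6% of windows in vehicle livers 1 to 3, and in 14.4, 16.3, 16.1 and 15.9% in TCPOBOP livers 1 to 4. The median density was 3.28 to 4.30 times the score per window that chance gives, against 7.75 to 15.4 times for the dense regions. As islands are called for enrichment and the set was chosen by density, these ratios are a description.

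Regions on either side of the limit that defined the set were ranked as follows. The regions just inside it, chr1:165403201, chr10:119058401 and chr1:37130801 by their starts, reached percentiles of 25, 24.9 and 24.9 in their highest list. Those just outside, chr10:69148401, chr6:9128401 and chr3:156791601, reached 25.1, 25.1 and 25.2. A further 305 mid-sized regions, 5.75%, were below the limit in 6 lists and missed it in 1, which was vehicle 1 for 68 of them, TCPOBOP 1 for 52 and each other liver for 29 to 43. By contrast, 2606 regions, 49.12%, were above the limit in all 7 lists. The density of a region therefore varied between livers near the limit.

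As merged regions, the low-density ones were wide and patchily covered. Their median width was 87.8 kb, against 69.2 kb for the regions in between and 68.8 kb for the dense ones. This is the width of the union of all livers' islands, which islands placed differently between livers make wider. Within each liver the median island was shorter in the low-density regions than in the dense ones. The cover of a region is the share of its length under islands of a liver. Median cover of the low-density regions was 70.1, 49.2 and 60.9% in vehicle livers 1 to 3 and 61.2, 50.7, 67.3 and 60.8% in TCPOBOP livers 1 to 4. Vehicle 2 and TCPOBOP 2 were the lowest of their groups, and the groups overlapped. In the regions in between, vehicle 2 and TCPOBOP 2 were also the lowest, with 73.0 and 72.6% against 73.7 to 79.3% in the other livers. Their whole lists were the shortest too, 537 Mb each against 583 to 605 Mb, so less cover in these livers was not particular to the low-density regions. In the dense regions the order was turned: median cover was 88.5, 92.1 and 88.2% in the vehicle livers and 86.2, 90.5, 87.3 and 87.9% in the TCPOBOP livers, with vehicle 2 and TCPOBOP 2 the highest.

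**Figure D2:**
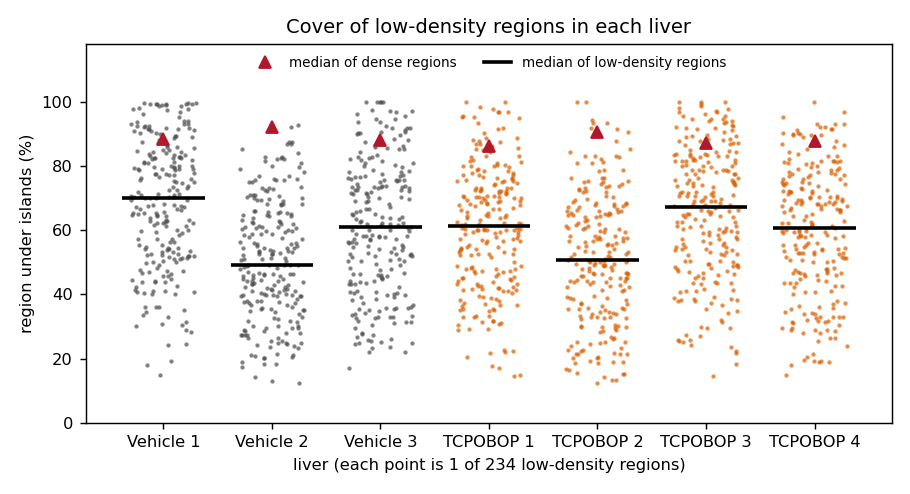
Share of each of the 234 low-density regions under islands (vertical axis, %) in each liver (horizontal axis), 1 point a region; black bars are their medians and triangles the medians of the dense regions. Single regions spread widely in every liver, and the medians of vehicle 2 (49.2%) and TCPOBOP 2 (50.7%) are the lowest.

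The same order was seen region by region. Both livers numbered 2 had less cover than all the other 5 livers in 50 of the 234 low-density regions, 21.4%, and more than all of them in 4, 1.71%. Among the regions in between it was 533, 12.1%, with less and 320, 7.24%, with more. Among dense regions it was 30, 4.62%, with less and 96, 14.8%, with more. The lowest cover of a low-density region fell in TCPOBOP 2 for 62 regions and in vehicle 2 for 57, and the highest in vehicle 1 for 69. Vehicle 2 had the lowest recovered read number of the 7 livers, whereas that of TCPOBOP 2 was the highest of its group; the part of depth in this was not tested.

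Islands in the low-density regions were shorter and more numerous than in the dense ones. A region held on average 1.56, 1.72 and 1.76 islands in vehicle livers 1 to 3 and 2.11, 1.74, 2.03 and 1.91 in TCPOBOP livers 1 to 4. Dense regions held 1.36 to 1.56, and the regions in between 1.51 to 1.97, close to the low-density ones. At widths of 30 to 60, 60 to 100 and 100 to 200 kb, the low-density regions held 1.19, 1.6 and 2.43 islands. The regions in between held slightly more, 1.22, 1.7 and 2.7, and the dense ones fewer, 1.14, 1.4 and 1.96. Of the 234 low-density regions, a single island was found in 129, 110 and 112 in the vehicle livers and in 80, 121, 84 and 97 in the TCPOBOP livers. The median island within them was 34.6, 23.6 and 26.4 kb in the vehicle livers and 22.8, 23.6, 25.6 and 24.2 kb in the TCPOBOP livers, against 34.4 to 42.0 kb in the dense regions. Where 1 liver had several islands in a region, the gap between neighbours was 5.6 kb at the median over 1366 gaps, and the widest was 87.6 kb. That median was 4.0 kb in the regions in between and 3.2 kb in the dense ones, where the caller bridges gaps of up to 2400 bp.

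The score of the best island placed the low-density regions within each list. The highest-scoring island of the median region stood at the 53.2, 38.4 and 57.1 percentile of all island scores of vehicle livers 1 to 3, and at the 57.1, 38.2, 58.3 and 56.4 percentile of TCPOBOP livers 1 to 4. The dense regions' best islands stood at the 91.3 to 95.1 percentile, and those of the regions in between at the 67.8 to 76.3 percentile. These ranks use the same score that density sums and that chose the classes, so they are a description. The low-density regions made up 1.96 to 2.48% of the length of a list.

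Little of a low-density region was under islands in all 7 livers. Such a share cannot exceed the lowest cover of any liver. Cover of the whole class was 48.9 to 67.5% over livers, against 69.8 to 76.1% in between and 84.6 to 89.2% in dense regions. How far the lower sharing follows from the lower cover was not tested. The share of a region under an island in all 7 livers was 7.14% at the median, against 31.9% in the regions in between and 68.7% in the dense ones. At least 6 livers shared 25.5%, against 51.6 and 79.0%. In 80 low-density regions, 34.2%, no window was covered in all 7 livers; this was so for 272, 6.15%, of the regions in between and for 0 dense ones. Over the 5 livers left without vehicle 2 and TCPOBOP 2, 43 low-density regions, 18.4%, had no window covered in all, against 142, 3.21%, and 0. The longest stretch common to all 7 livers was 6.0 kb at the median, against 14.8 and 34.4 kb. Shared stretches thus grew from class to class with density, and with cover. The low-density regions shared the least, although as unions of all livers' islands they were the widest.

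Counted by window, 9.98% of the low-density windows were covered in all 7 livers and 9.64% in just 1. The most frequent numbers were 4 livers, with 17.4%, and 5 livers, with 17.9%. In the dense regions 68.1% of windows were covered in all 7 livers, and in the regions in between 35.3%. Without both livers numbered 2, all 5 livers covered 19.8% of the low-density windows that any of them covered, 44.0% of those in between and 72.7% of the dense ones. The low-density class was thus spread over every number of livers, and the dense class piled up at 7.

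**Figure D3:**
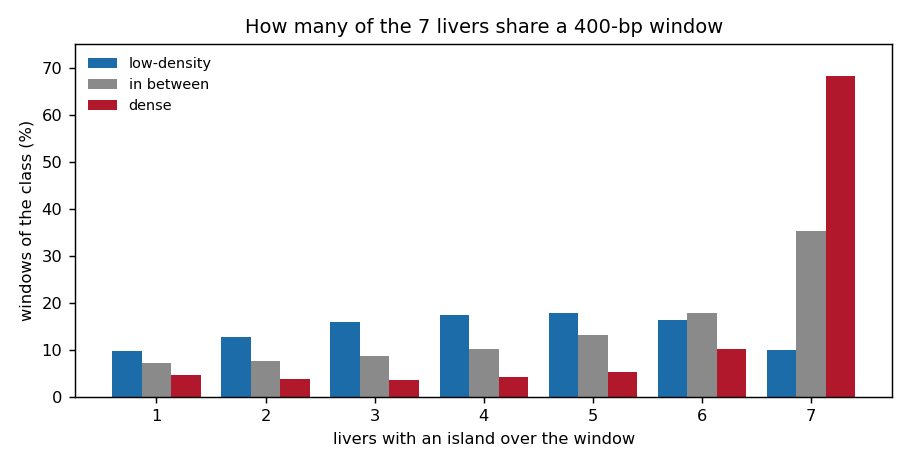
Share of the 400-bp windows of each class (vertical axis, %, from 0) by the number of livers with an island over the window (horizontal axis, 1 to 7). The low-density windows peak at 5 livers, with 17.9%, and the dense windows at 7 livers, with 68.1%.

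The order of the classes was the same at each width. Among regions of 30 to 60 kb, the 47 low-density ones shared 17.7% of their length in all 7 livers, the regions in between 31.1% and the dense ones 60.6%. From 60 to 100 kb the 98 low-density regions shared 2.87%, against 28.1 and 70.8%. From 100 to 200 kb the 89 low-density regions shared 7.69%, against 37.3 and 73.6%. The low-density regions shared the least in each of the 3 width classes. Without both livers numbered 2 they shared 28.9, 13.2 and 17.5% from the narrowest to the widest class, still the least; the regions in between shared 39.0, 37.1 and 46.8%. Low-density regions made up 2.3, 5.51 and 6.01% of the mid-sized regions of these widths.

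The outer limits of the low-density regions moved between livers as well. The left edge of a region's outermost island spanned 31.6 kb over the 7 livers at the median and the right edge 32.0 kb. In the regions in between these spans were 15.6 and 15.2 kb, and in the dense regions 6.8 kb on both sides. Without both livers numbered 2 they were 24.8 kb on both sides of the low-density regions, 12.4 and 11.6 kb in between and 4.8 and 5.2 kb in the dense regions. Cut into 10 equal parts from left to right, the low-density regions were covered to 41.2% in the first, 68.7% in the fifth and 39.5% in the last, as a mean over regions and livers. The dense regions rose from 60.5% in the first part to at most 94.9% inside. Cover in all 7 livers reached at most 18.1% in any of the 10 parts of the low-density regions and 83.1% in the dense ones. Since a region is the union of all livers' islands, its ends are covered less by construction.

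Pairs of livers shared less of the low-density regions than of the others. The Jaccard index, the base pairs shared by a pair of livers divided by those in either, ran from 0.435 to 0.556 over the 21 pairs within low-density regions, with a median of 0.451. All pairs with vehicle 2 or TCPOBOP 2 lay between 0.435 and 0.451, and all other pairs between 0.498 and 0.556. The pair of these 2 livers with each other was the lowest, at 0.435. In dense regions the index ran from 0.845 to 0.879, and that same pair was the highest. The index depends on cover, which these 2 livers had least of in low-density and most of in dense regions. The part of cover in these indices was not tested. The mean over the 9 pairs within a group was 0.477 and over the 12 pairs between groups 0.481, so the mean was not higher within groups.

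Livers also ranked the low-density regions differently by cover. Spearman's rank correlation of cover across the 234 regions ran from -0.0352 to 0.365 over the 21 pairs of livers, with a median of 0.15, and was highest between vehicle 2 and TCPOBOP 2. Across the 649 dense regions it ran from 0.249 to 0.633, with a median of 0.409. These correlations are across regions, which are not independent replicates, and both values of a pair come from the same merged regions. The cover of 1 region varied accordingly: its range over the 7 livers was 53.1 points of percent at the median, against 42.9 points in the regions in between and 21.5 points in the dense ones. Without both livers numbered 2 these ranges were 41.9, 33.5 and 16.8 points. The standard deviation over livers was 19.1, 15.5 and 7.77 points in that order.

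The regions of lowest density show this in single cases. The lowest of all by mean percentile, chr3:30577201-30677600 of 100.4 kb, had densities of 1.63, 1.63 and 1.94 in the vehicle livers and 1.67, 1.59, 1.48 and 1.67 in the TCPOBOP livers. Its cover was 54.2, 80.1 and 21.9% in the vehicle livers and 31.5, 49.4, 29.5 and 50.6% in the TCPOBOP livers, and no window was covered in all 7. Cover was highest in vehicle 2, against the general order of the livers, and lowest in vehicle 3. In the fifth lowest, chr10:36390001-36482800 of 92.8 kb, cover was 90.1, 23.3 and 53.9% in the vehicle livers and 87.5, 47.8, 38.8 and 31.5% in the TCPOBOP livers. Vehicle 1 and TCPOBOP 1 were high there and the other livers low. The fourth lowest, chr13:42084401-42142400, was steadier, with 57.2, 62.1 and 70.3% in the vehicle livers and 52.4, 68.3, 57.9 and 44.8% in the TCPOBOP livers. Between them stood chr8:29732801-29876000, with cover of 16.5% in TCPOBOP 2 to 70.7% in TCPOBOP 3, and chr7:35178001-35252800, with 29.4% in vehicle 2 to 65.8% in TCPOBOP 2.

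Cover and sharing at the extremes of the set followed the same pattern. The region of highest mean cover, chr9:27422401-27474400 of 52.0 kb, was covered to 79.2, 76.9 and 71.5% in the vehicle livers and 96.9, 91.5, 94.6 and 74.6% in the TCPOBOP livers, a mean of 83.6%. Even there, 31.5% of the length was under islands in all 7 livers. The next, chr19:28104001-28222800, had a mean cover of 81.6% and shared 36.4%; chr9:94688001-94722000, chr8:60342801-60386400 and chr5:132602001-132651200 shared 37.6, 16.5 and 31.7%. The 5 regions of lowest mean cover had no window covered in all 7 livers. The lowest, chr4:83823201-83956000, had a mean cover of 34.3%. In 2 of them, 1 or a few livers were far above the rest. At chr10:45899201-46003600 cover was 90.4, 13 and 46.0% in the vehicle livers and 14.9, 29.9, 47.1 and 21.5% in the TCPOBOP livers. At chr5:142406001-142518800 it was 30.5, 69.9 and 44.7% in the vehicle livers and 14.5, 83.0, 14.5 and 14.9% in the TCPOBOP livers. In this last region both livers numbered 2 were the highest. The other members of that list were chr5:99834401-99922400 and chr10:18624401-18713600, which is described again below.

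**Figure D4:**
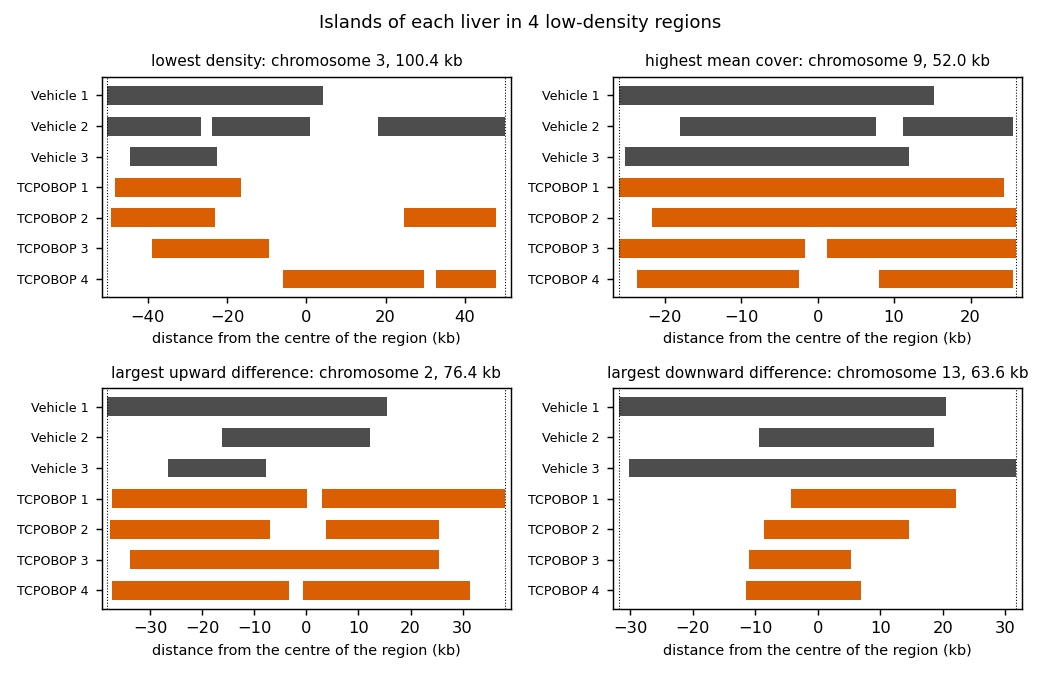
Islands (bars) of the 7 livers (rows) in 4 low-density regions, by distance from the centre of the region in kb (horizontal axis, to scale within each panel, dotted lines at the region's ends): the region of lowest density, that of highest mean cover, and those with the largest upward and downward difference in cover after TCPOBOP. Bars differ in length, place and number between livers of the same group, most clearly in the region of lowest density, where no position is covered in all 7 livers.

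The widest regions came close to the upper limit of the width class. They were chr15:42774001-42972400 of 198.4 kb, a second of 198.0 kb on chromosome 18, chr14:77972801-78160800, chr13:68846001-69032400 and chr2:171453601-171638800. They shared 9.88, 14.3, 0.0, 0.0 and 19.2% of their length in all 7 livers. At the chromosome 14 region cover ran from 14.9% in vehicle 1 to 91.1% in TCPOBOP 3. A wide region could thus hold a shared part or none.

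The low-density regions lay within chromatin that carried other islands. Cover of the 500 kb on each side of a region was 32.0% at the median, as in the regions in between (32.0%) and close to that of the dense regions (33.2%). The gap to the nearest other merged region was 6.4 kb at the median, against 6.4 and 7.6 kb. Within single livers, flank cover at the median was 32.4, 25 and 32.1% in the vehicle livers and 32.9, 26.6, 34.7 and 31.9% in the TCPOBOP livers. Vehicle 2 and TCPOBOP 2 were again the lowest. Around dense regions these 2 livers were the highest, with 35.3 and 34.4%, against 31.5 to 33.2% in the others. The flanks can hold other low-density and mid-sized regions, so they are not independent of the regions that were ranked.

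Most low-density regions did not neighbour another, though more did so than other mid-sized regions. The nearest mid-sized region was itself of low density for 25 of the 234, 10.7%, whereas it was so for 203, 4.0%, of the other mid-sized regions and for 4, 0.616%, of the dense ones. The nearest was dense for 7 low-density regions, 2.99%, against 12.6% of the other mid-sized regions and 29.7% of the dense ones. Next to each other along the mid-sized regions were 23 pairs, of which 8 lay within 10 kb and 13 within 50 kb. Such pairs may be parts of 1 stretch that no liver's islands joined, so neighbours are not independent of each other. As the rule used density, the difference was not tested.

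The closest pair, chr3:85112401-85218400 and chr3:85219201-85325600, was 0.8 kb apart. Cover of the first was 49.1, 39.6 and 33.2% in the vehicle livers and 47.2, 68.7, 55.8 and 44.2% in the TCPOBOP livers. Cover of the second was 82.7, 12.4 and 33.5% in the vehicle livers and 60.2, 83.1, 60.5 and 65.8% in the TCPOBOP livers. TCPOBOP 2 was the highest of the 7 livers in both regions and vehicle 1 the highest vehicle liver, whereas the lowest liver was vehicle 3 in the first and vehicle 2 in the second.

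A run of 3 adjacent low-density regions and, further along, a pair lay on chromosome 8 between 16048801 and 17062800, and are described after their values were seen. The run was chr8:16048801-16132400, chr8:16146001-16216400 and chr8:16222801-16296000, and the pair chr8:16812801-16896400 and chr8:16928401-17062800. In that order, mean cover over the 7 livers was 56.5, 45.0, 61.6, 64.7 and 49.9%, and the part shared by all livers was 0.0, 0.0, 0.0, 4.78 and 2.98%. Differences in cover between the groups, TCPOBOP minus vehicle, were 35.3, 14.2, 5.46, -18.9 and 4.02 points, upward in 4 of the 5 and downward in 1. A run of 3 on chromosome 5, chr5:126203601-126358800, chr5:126363601-126494400 and chr5:126540801-126646000, lay in more heavily marked surroundings, with flank cover of 48.9, 55.2 and 60.4%. The first and second shared 38.7 and 32.7% of their length in all 7 livers, where the highest value of the set was 44.5%, and the third 0.0%.

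Chromosomes differed in their share of low-density regions. Chromosome 13 had 17 among 244 mid-sized regions, 6.97%, followed by chromosomes 10 and 15 with 6.64 and 6.55%. Chromosomes 11 and 17 had 8 of 329 and 5 of 206, 2.43% each, and chromosome 4 had 2.45%. Chromosome 11 also had the highest share of dense regions, 20.4%. Over the 19 autosomes the shares of low-density and dense regions were inversely related (Spearman's rho -0.594, Pearson's r -0.576), as a description of shares taken from the same mid-sized regions. The low-density regions lay at 53.8% of the chromosome's length at the median and the dense ones at 65.1%.

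The comparison of TCPOBOP with vehicle asked whether CAR activation moved the mark 27 h after the dose. No low-density region changed in cover by the test used. Limma on the cover of all 13988 testable regions, with Benjamini-Hochberg adjustment, called 0 of the 234 at adjusted p under 0.05, and 0 regions in all (0.0% called). At an unadjusted p under 0.05, 1 low-density region had more cover after TCPOBOP and 0 had less; over all tested regions the shares were 2.42 and 1.45%. The lowest adjusted p among the low-density regions was 1. The groups did not overlap, with more cover after TCPOBOP, in 4 low-density regions, 1.71%, where the share over all tested regions was 1.8%. They did not overlap, with less cover, in 4 others, 1.71%, where that share was 1.65%. Both counts were near the background. Without limma's trend and robust variance, 4 low-density regions had more and 4 had less cover at an unadjusted p under 0.05. Over all tested regions 712 of 13988 were under 0.05 in that fit, and limma called 0 of the 234 after adjustment.

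The differences were centred close to 0 and, by limma's standard errors, imprecise. The median difference in cover, TCPOBOP minus vehicle, was -0.837 points, with 111 regions above 0 and 123 below. Single differences ran from -41.5 to 38 points. Their standard error was 21.3 points at the median, against 6.26 points in the dense regions and 24.0 points over all tested regions. These errors mostly followed limma's trend of variance on mean cover, and a region's own livers little. For example, chr1:189689601-189768800 had a mean cover of 48.3% and SDs of 5.95 (vehicle) and 9.62 points (TCPOBOP). Its standard error was 26.4 points. In chr6:106510401-106617600, mean cover was 48.6%, the SDs 28.4 and 19.2 points, and the standard error 26.6 points. How far the smaller errors of the dense regions restate their higher cover was not tested. The spread between livers holds differences between animals.

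**Figure D5:**
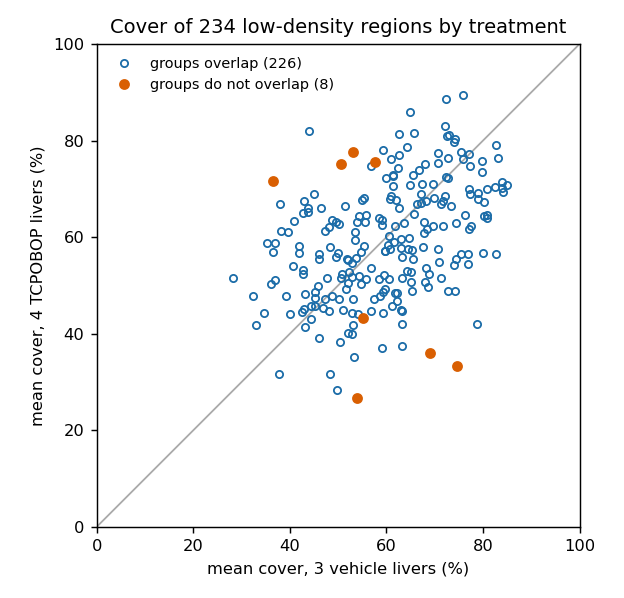
Mean cover of each of the 234 low-density regions in the 3 vehicle livers (horizontal axis, %) against the 4 TCPOBOP livers (vertical axis, %), with the line of equal cover. Points scatter on both sides of the line, 111 above and 123 below, and the 8 regions whose livers do not overlap between groups are marked.

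Summed over the set, the length under islands differed between the groups by less than between livers. Islands took up 14524, 10527 and 12835 kb of the low-density regions in vehicle livers 1 to 3, and 13010, 10656, 14018 and 12696 kb in TCPOBOP livers 1 to 4. The group means were 12629 ± 2006 kb (SD, n = 3) and 12595 ± 1410 kb (SD, n = 4), a difference of -33.5 kb that was smaller than the spread between livers. Median cover was 60.1 ± 10.5% (SD, n = 3) and 60 ± 6.89% (SD, n = 4). The number of islands per region was 1.68 ± 0.103 (SD, n = 3) and 1.95 ± 0.164 (SD, n = 4), a difference of 0.268 with no overlap save TCPOBOP 2, at 1.74 below vehicle 3. The whole lists differed likewise: they held 14167, 16301 and 17852 islands in the vehicle livers and 20550, 16481, 18512 and 18399 in the TCPOBOP livers. With lists cut to equal total length, the difference was 0.114 islands per region.

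The largest difference upward was at chr2:94558401-94634800, of 76.4 kb. Cover was 70.2, 37.2 and 24.6% in the vehicle livers and 95.3, 68.6, 77.5 and 86.4% in the TCPOBOP livers. TCPOBOP 2 was below vehicle 1, so the groups overlapped. The difference was 38 points with a standard error of 17.6 points (limma adjusted p = 1, unadjusted 0.034), and it was the 1 region under 0.05 before adjustment. In chr8:16048801-16132400, the first of the run on chromosome 8, cover was 44.5, 24.4 and 40.2% in the vehicle livers and 52.2, 66.5, 92.8 and 75.1% in the TCPOBOP livers. The groups did not overlap, and the difference was 35.3 points with a standard error of 22.5 points.

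In another 2 of the largest upward differences the groups did not overlap. In chr9:103705601-103823600 cover was 52.2, 58.6 and 48.1% in the vehicle livers and 74.2, 64.7, 79.7 and 92.2% in the TCPOBOP livers. That was 24.7 points more with a limma standard error of 16.5 points. The SDs of these livers were 5.3 points for vehicle and 11.5 points for TCPOBOP. In chr2:128313601-128381600 cover was 60, 62.4 and 29.4% in the vehicle livers and 91.8, 64.1, 81.8 and 62.9% in the TCPOBOP livers, 24.6 points more. The nearest livers of the groups, vehicle 2 and TCPOBOP 4, almost met. The third-largest difference upward, at chr11:9464801-9533200, was 28.8 points in overlapping groups. All 5 had an adjusted p of 1 in limma.

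The largest difference downward was at chr13:69428801-69492400, of 63.6 kb. Cover was 82.4, 44.0 and 97.5% in the vehicle livers and 41.5, 36.5, 25.8 and 28.9% in the TCPOBOP livers. All TCPOBOP livers lay below all vehicle livers, but vehicle 2 was close to TCPOBOP 1. The difference was -41.5 points with a standard error of 25.3 points. In chr1:178219201-178312400 cover was 62.2, 57.5 and 87.6% in the vehicle livers and 33, 36.9, 53.2 and 20.6% in the TCPOBOP livers, -33.2 points with a standard error of 25.6 points. In chr10:18624401-18713600 it was 65.0, 32.7 and 63.7% in the vehicle livers and 31.8, 30.5, 25.1 and 19.3% in the TCPOBOP livers, -27.1 points with a standard error of 30.1 points. The groups did not overlap in either of these 2 regions, though vehicle 2 was close to TCPOBOP 1 in the latter. The SDs of the vehicle and TCPOBOP livers were 16.2 and 13.5 points in the former. In the latter they were 18.3 and 5.73 points. Differences of -36.6 points at chr16:28303201-28381600 and -26.2 points at chr2:5141201-5186800 were in overlapping groups. All 5 again had an adjusted p of 1 in limma.

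The total of low-density regions without overlap between the groups rose whichever liver was left out, and leaving out a liver can only keep or raise it. Without vehicle 2, 10 low-density regions were higher and 23 lower in all TCPOBOP livers, 4.27 and 9.83%, where the shares over all tested regions were 4.74 and 7.4%. Without both livers numbered 2 the counts were 19 and 27, 8.12 and 11.5%, against 8.12 and 9.19%. Without vehicle 1 they were 19 and 8, 8.12 and 3.42%, against 4.36 and 4.34%, the share of higher regions standing furthest from that over all tested regions. Without vehicle 3 they were 13 and 10, 5.56 and 4.27%, against 3.89 and 4.4%. Without TCPOBOP 2 they were 13 and 8, 5.56 and 3.42%, against 4.23 and 2.8%. Without TCPOBOP 3 they were 8 and 8, 3.42% each, against 2.97 and 3.2%. Without TCPOBOP 4 they were 10 and 6, 4.27 and 2.56%, against 3.0 and 2.78%. Without TCPOBOP 1 they were 5 and 4, 2.14 and 1.71%, against 3.12 and 2.73%. Fewer livers leave more room for such separation, as the shares over all regions show. Limma called 0 low-density regions without vehicle 2, without vehicle 1 and without both livers numbered 2, with lowest adjusted p of 0.845, 1.0 and 0.805. The part of a low-density region shared by all livers was 18.4% at the median without both livers numbered 2 and 11.9% without vehicle 2, against 7.14% with all 7.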

How the data were processed

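H3K27me3 was mapped by ChIP-seq in 7 livers, 3 vehicle and 4 TCPOBOP, each from a separate animal. Per the submitters' processing notes, reads were aligned with Bowtie2 2.3.2 to mm9 and islands called with SICER 1.1; the names of the lists carry windows of 400 bp, gaps of up to 2400 bp and E-value 100. Control, filters and handling of duplicate reads are not given in the sources used here. The deposited unit is the island score: in the lists the authors deposited it equals, for the narrow islands tried, a sum over windows of minus the natural log of each window's Poisson probability, counting windows whose read number chance gives no more often than 0.2. Scores grow with depth, so density limits were set within each list and densities were not tested between livers.

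Read numbers were recovered as the whole number giving deposited scores exactly with an effective genome of 80% of mm9; they are the reads that SICER counted. Islands were merged across lists, and cover is the share of a region under islands. Limma 3.58.1 (R 4.3.3; trend and robust variance) compared cover in 13988 regions with an island in at least 2 livers and unequal cover, two-sided, at 0.05 after Benjamini-Hochberg adjustment; the fit was tested on simulated data. Other steps used Python 3.11.15, NumPy 2.4.6, SciPy 1.17.1 and pandas 2.3.3. No test was made over the set as a whole. Alternatives were lists of equal length, lists without their lowest-scoring 25%, limma without filter or without trend and robust variance, a replicate block, and each liver left out.

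The members and lists were chosen with earlier results of these data known. Named regions were the 5 members with the lowest mean density percentile, the 5 widest, the 5 with the highest and the 5 with the lowest mean cover, the 5 largest differences upward and the 5 largest downward, and the 3 nearest the limit on each side. No mm9 sequence or gene annotation was used here, so no genes were assigned and no sequence is shown.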

Additional observations from a re-analysis of the deposited data

Results flagged for a closer look

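Of 39 groups of 4 TCPOBOP livers examined for 1 liver far from the other 3 (by Dixon's 95% critical value), 3 held such a liver; chance gives about 1 in 20. The best island of the median low-density region stood at the 38.2 percentile of scores in TCPOBOP 2, against 56.4 to 58.3 in the other 3. Cover of the region on chromosome 5 from 132602001 was 50.4% in TCPOBOP 4, against 91.9 to 96.7%. Cover of the region on chromosome 5 from 142406001 was 83.0% in TCPOBOP 2, against 14.5 to 14.9%.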

How the results depend on the processing

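Limma called 0 low-density regions at adjusted p under 0.05 in the reported fit and in all 13 alternatives, whose lowest adjusted p ran from 0.805 to 1. Under 0.05 unadjusted were 0 to 8 of the 234, against 417 to 748 of the 10779 to 17394 regions tested in a fit. The 8 were found without trend and robust variance, where 712 of 13988 tested regions were under 0.05. Over all tested regions, 13 were called without trend and robust variance, 1 without the filter and 0 in the other fits. Same-numbered livers were not paired: their deviations from group means correlated at 0.027, 0.278 and 0.069 for numbers 1 to 3, and TCPOBOP 1 and TCPOBOP 3 correlated more with a vehicle liver of another number. With the replicate block on livers 1 to 3, limma called 0 low-density regions. Unadjusted, 2 of the 234 were under 0.05, against 466 of 13413 tested regions. The 5 largest differences upward and the 5 largest downward kept their direction in 120 of 120 alternatives and passed the threshold in 0. These regions were picked for the size of their differences in the same lists, so a kept direction is no support for them. Islands per region differed by 0.114 with lists of equal length, against 0.268. The 8 regions without overlap between groups became 9 to 33 with 1 liver left out and 46 without both livers numbered 2, an alternative added after seeing the data. The shares over all tested regions, given above, rose in each of these settings as well. The part shared by all 7 livers, 7.14%, was 25.5% for at least 6 livers, 0.0% without the lowest-scoring 25% of each list, 9.16 to 11.9% with 1 liver left out, and 18.4% without both livers numbered 2; fewer livers can only raise it. Median density over all lists was 2.04 per island window and 1.22 per window of the whole region. The difference in kb under islands stayed within the spread between livers in every alternative, from -1084 to 914 kb with 1 liver left out. Depth limits what an absent island means: near the lowest number of reads that scores, presence and absence of an island differ by few reads. Counts of gene starts were not run.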
